A study of Homo sapiens with 8 samples.

Results

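Receptor tyrosine kinases are surface proteins that bind a growth factor outside the cell, pair up and phosphorylate each other inside it, which recruits adaptor proteins and switches on the RAS to ERK and PI3K to AKT routes of growth and survival. In the intestinal epithelium the EGF receptor family is known for driving renewal, and in melanocytes KIT and its ligand are known for survival and migration. The set described here holds 10 receptor genes chosen by name, EGFR, ERBB2, ERBB3, MET, KIT, PDGFRA, PDGFRB, FGFR1, FGFR3 and IGF1R, out of 16578 named genes on the array. They are read by 19 of its 22184 probes.

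Transcripts were measured on 8 human bead arrays, with cells of the colon carcinoma line Caco2 and the melanoma line WM115 sorted by the AC133 antibody against an epitope of CD133. The 4 groups were Caco2 AC133 high, Caco2 AC133 negative, WM115 AC133 high and WM115 AC133 negative, each from 2 sorts, where high means the 10% of cells with the brightest stain. The Caco2 cells, high and negative alike, carried green fluorescent protein under the mouse Melk promoter from a lentivirus and grew in DMEM with 20% serum. They descend from 2 clones of the infected culture, and which clone entered which sort is not given in the sources used here. The WM115 cells carried no reporter per the labels and grew in RPMI with 10% serum, so line, reporter and medium cannot be told apart in any comparison of the lines. All arrays lay on 1 slide, and between 53.7% and 59.2% of all probes were above background per array. PROM1, the gene for CD133, was 18.1-fold higher in the high cells of Caco2 and 12.1-fold higher in those of WM115 (limma adjusted p of 4.1e-04 and 6.9e-04). Of 10 colon and enterocyte markers 9 were above background on all Caco2 arrays, CDX1 being the exception. Of 9 melanocyte markers 8 were so on all WM115 arrays, S100B being detected on 3 of 4. Some were also detected in the other line, at lower means there. Of the melanocyte markers, PMEL and GPR143 were detected on 4 Caco2 arrays and MITF and RAB27A on 3. Of the colon markers, KRT18 was detected on 4 WM115 arrays, EPCAM and FABP1 on 2 and KRT8 on 1. From sort 2 of WM115, the array of the AC133 negative cells stood apart, with 175 probes more than 2-fold above each of the other WM115 arrays, none of them a receptor probe.

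A probe counted as detected on an array where its detection p-value, its rank against the negative control probes, was under 0.05. Levels are normalized log2 signals, and since each probe has its own brightness, the level of one gene is not set against that of another. A probe was tested where it was detected on both arrays of at least 1 group. By this rule 12 of the 19 probes were tested, for 7 of the 10 genes. The 7 probes left out were the only probes of KIT and PDGFRB, both probes of FGFR1, and 1 probe each of EGFR, ERBB2 and FGFR3. Of the 12, EGFR probes 1 and 3, ERBB2 probes 1 and 2, PDGFRA and FGFR3 passed through Caco2 groups alone and EGFR probe 2 through the WM115 high group alone, so that counts over the tested probes describe these and not the whole set. In sorted bulk RNA, fewer cells that express a gene and less of its RNA per cell cannot be told apart.

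**Figure D1:**
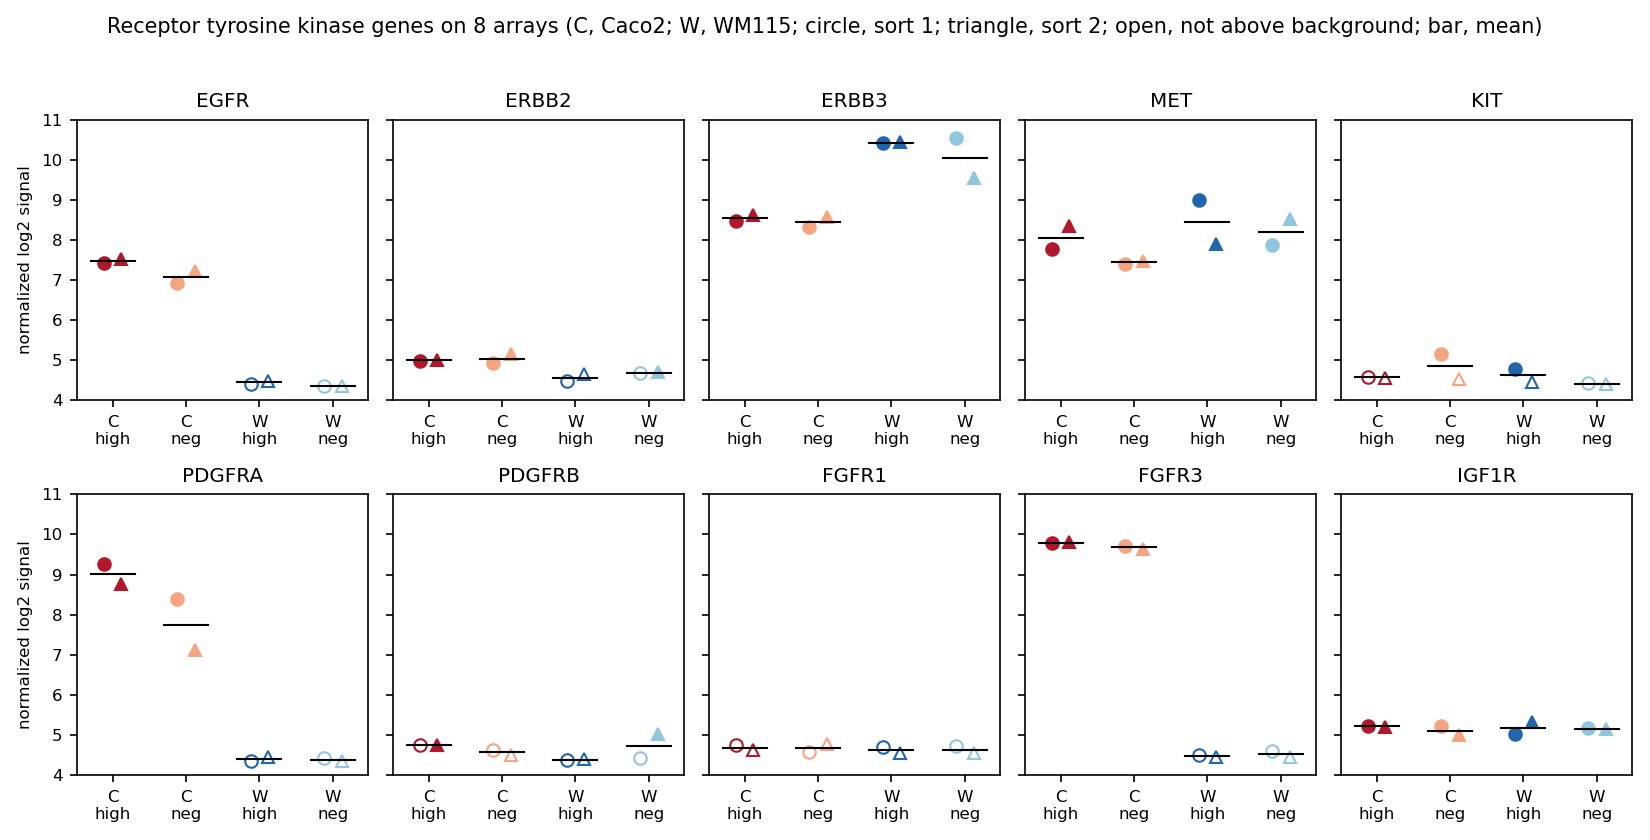
Normalized log2 signal (vertical axis) of the brightest probe of each of the 10 receptor genes in the 4 groups of 2 arrays; circles are sort 1, triangles sort 2, open symbols are not above background and bars are means. EGFR, PDGFRA and FGFR3 are above background on the Caco2 arrays only, ERBB3 is higher in WM115, and KIT, PDGFRB and FGFR1 lie near background.

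The first comparison asked how the receptors differ between the colon and the melanoma line. FGFR3 probe 1, PDGFRA and the full-length EGFR transcript were detected on all 4 Caco2 arrays and on none of the 4 WM115 arrays. By contrast, ERBB3 was 3.33-fold higher in WM115. ERBB2 was slightly higher in Caco2, a call made on its probe 1 alone, MET did not pass the test, and IGF1R was nearly equal. Limma called 8 of the 12 tested probes, 5 higher in Caco2 and 3 higher in WM115. Over all 13844 probes tested, 58.7% were called, 29.6% higher and 29.2% lower in Caco2, so a majority of the tested probes differed between these lines. The 4 arrays of a line come from 2 sorts, and with the sort as a random block limma again called 8 of the 12, against 55.5% of all probes. The median difference of the 12 probes was 0.06 log2 units, against 0.01 over all probes. On 5 receptor probes every Caco2 array was above every WM115 array, and on 3 every WM115 array was above every Caco2 array, patterns met by 27.8% and 27.7% of all tested probes.

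Of the EGF receptor family, EGFR binds EGF and its relatives. Its probe annotated to the full-length receptor transcript read 7.43 and 7.53 in the Caco2 high cells of sorts 1 and 2 and 6.92 and 7.22 in the negative cells. In WM115 it read 4.42 and 4.48 in the high cells and 4.36 and 4.36 in the negative cells, all at background. The Caco2 level was at least 5.86-fold that of WM115 (limma adjusted p 1.2e-07). Such bounds set the mean of the line with signal against the faintest signal detected on each array of the other line, or the probe's own signal where that is higher. The other 3 EGFR probes are annotated to shorter transcripts that encode receptor forms lacking the kinase domain. Probe 3, detected on 3 Caco2 arrays and on no WM115 array, was at least 1.22-fold higher in Caco2 (adjusted p 0.0023). Probe 2, detected on 2 arrays of each line, differed by 0.04 log2 units (adjusted p 0.825), and probe 4 was detected on no array.

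ERBB2, which has no ligand of its own and pairs with the other family members, was dim. Its probe 1 read 4.99 and 5.01 in the Caco2 high cells and 4.92 and 5.15 in the negative cells, all detected. In WM115 it read 4.48 and 4.66 in the high cells and 4.68 and 4.69 in the negative cells, of which only the negative array of sort 2 was above background. The difference of 0.39 log2 units (SE 0.11) passed with an adjusted p of 0.014, but it lost the call with a normexp offset of 50 (0.18, adjusted p 0.052) and without the WM115 high array of sort 1 (0.35, adjusted p 0.051). Probe 2, for another transcript variant, differed by 0.09 (adjusted p 0.513). Probe 3, annotated to the same transcript as probe 1, was detected on no array.

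ERBB3, a neuregulin receptor with little kinase activity that signals through its partners, was the receptor higher in the melanoma line on every probe. The probe for the full-length transcript read 8.46 and 8.63 in the Caco2 high cells and 8.31 and 8.58 in the negative cells. In WM115 it read 10.40 and 10.44 in the high cells and 10.53 and 9.54 in the negative cells, the last value being that of the array that stood apart. Caco2 was lower by a log2 difference of -1.74 (SE 0.21, adjusted p 1.2e-04). The other 2 probes, annotated to a short transcript for a secreted form, differed by -1.13 (adjusted p 0.0031) and -0.88 (adjusted p 0.0052). The 3 probes thus had 1 direction, and each was detected on all 8 arrays with no overlap between the lines.

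MET, the receptor for hepatocyte growth factor, was detected on every array. It read 7.77 and 8.34 in the Caco2 high cells, 7.40 and 7.48 in the Caco2 negative cells, 9.00 and 7.90 in the WM115 high cells and 7.88 and 8.52 in the WM115 negative cells. The lines overlapped, and the difference of -0.58 log2 units (95% interval -1.18 to 0.02) had an adjusted p of 0.088. Without the WM115 high array of sort 2 it was -0.85 and passed, with an adjusted p of 0.012.

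**Figure D2:**
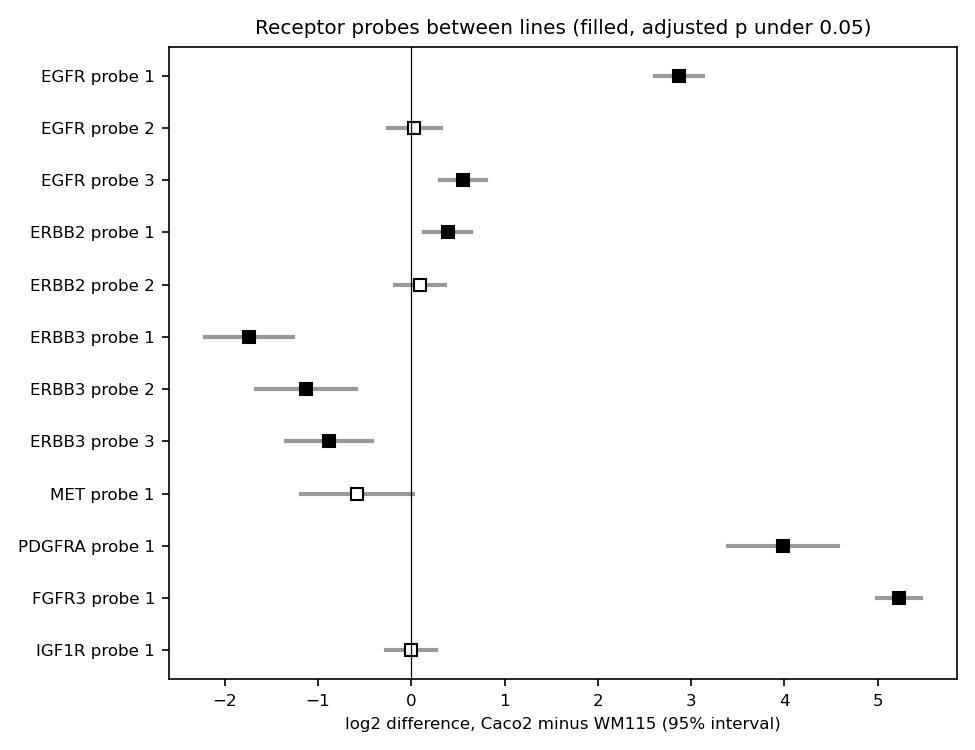
Log2 difference, Caco2 minus WM115 (horizontal axis), of each tested receptor probe with its 95% interval; filled squares have an adjusted p under 0.05. FGFR3 at 5.23, PDGFRA at 3.98 and EGFR probe 1 at 2.87 lie furthest to the right, values that background in WM115 limits, and the 3 ERBB3 probes lie to the left of 0.

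PDGFRA, PDGFRB and KIT form 1 structural class of receptors, the first pair for platelet-derived growth factors and KIT for stem cell factor. PDGFRA read 9.26 and 8.75 in the Caco2 high cells and 8.38 and 7.12 in the Caco2 negative cells. In WM115 it was at background, with 4.36 and 4.46 in the high cells and 4.42 and 4.34 in the negative cells. The Caco2 level was at least 12.6-fold that of WM115 (adjusted p 2.5e-06), with an SD of 0.92 log2 units over the 4 Caco2 arrays. PDGFRA is known as a gene of fibroblasts, and of 7 fibroblast markers DCN, COL1A2, PDPN and THY1 were detected on no Caco2 array. LUM was detected on 4, COL3A1 on 3 and COL1A1 on 1 of the 4.

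PDGFRB was detected on 2 of the 8 arrays, the Caco2 high array of sort 2 at 4.75 and the WM115 negative array of sort 2 at 5.02. The latter is the array that stood apart, and in the other 6 arrays PDGFRB ran from 4.37 to 4.75, none above background. KIT was also detected on 2 arrays, the Caco2 negative array of sort 1 at 5.15 and the WM115 high array of sort 1 at 4.78, and read 4.40 to 4.57 on the rest. The melanocyte genes MITF, PMEL, MLANA and TYR were detected on all 4 WM115 arrays, where KIT was detected on 1. Neither gene was tested.

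FGFR3 and FGFR1 bind fibroblast growth factors. FGFR3 probe 1 read 9.78 and 9.81 in the Caco2 high cells and 9.72 and 9.64 in the Caco2 negative cells. In WM115 it read 4.51 and 4.45 in the high cells and 4.61 and 4.46 in the negative cells, none above background. The Caco2 level was at least 32.2-fold that of WM115 (adjusted p 3.5e-09), with an SD of 0.08 log2 units over the 4 Caco2 arrays. The 2 FGFR3 probes are annotated to different transcript variants. Probe 2 was detected on no array of either line, so the probes of this gene disagree. The fold above is thus that of probe 1 alone. Why probe 2 gave no signal was not tested, and without probe sequences the transcripts that each probe matches could not be checked beyond the annotation. Both FGFR1 probes were also at background on all 8 arrays, at 4.54 to 4.76 and 4.30 to 4.41.

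IGF1R, the receptor for the insulin-like growth factors, was detected on all 8 arrays at low signal. It read 5.23 and 5.20 in the Caco2 high cells, 5.21 and 5.00 in the Caco2 negative cells, 5.03 and 5.32 in the WM115 high cells and 5.16 and 5.15 in the WM115 negative cells. The arrays of the lines overlapped, and the lines differed by -0.00 log2 units with a 95% interval of -0.27 to 0.26.

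**Figure D3:**
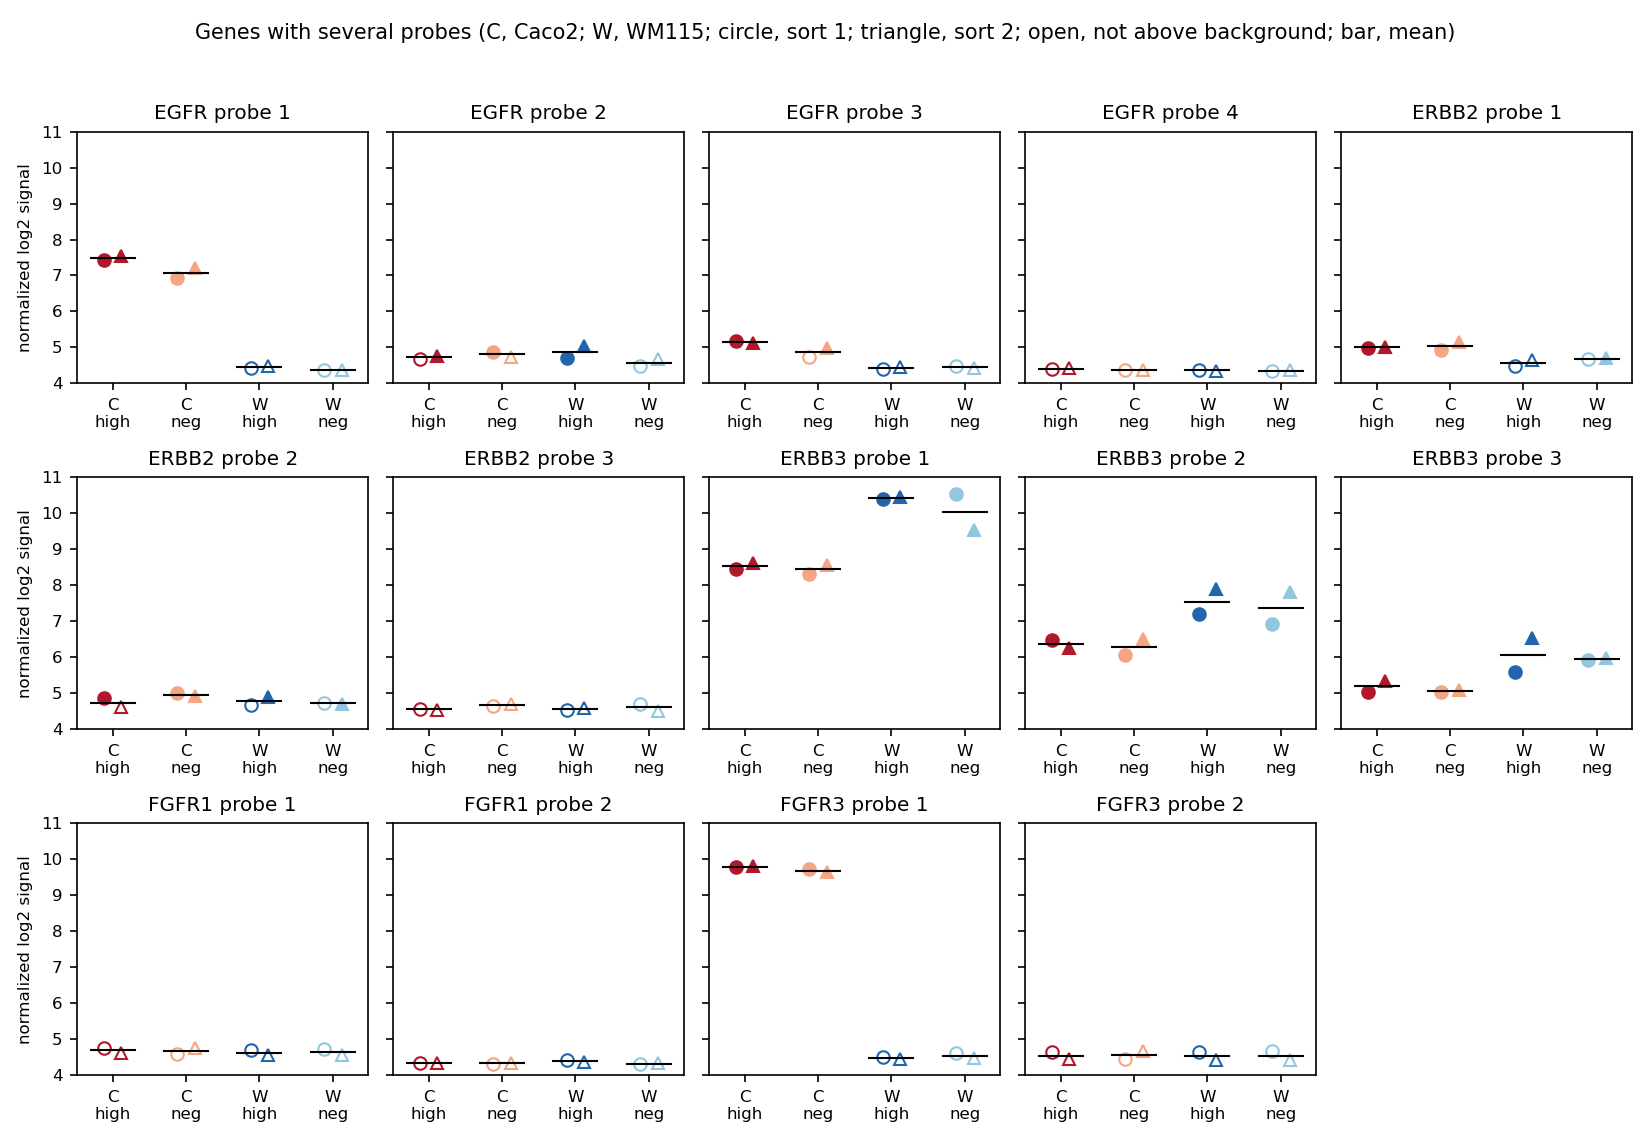
Normalized log2 signal (vertical axis) of every probe of the 5 receptor genes with more than 1 probe, in the 4 groups of 2 arrays; circles are sort 1, triangles sort 2, open symbols are not above background and bars are means. The ERBB3 probes share a direction between the lines, while EGFR probes 2 to 4, ERBB2 probe 3 and FGFR3 probe 2 stay near background where probe 1 of EGFR and of FGFR3 does not.

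PDGFRA and probe 1 of EGFR and of FGFR3 shared a pattern, detected on all Caco2 arrays and on no WM115 array, which the other probes of EGFR and FGFR3 did not show. The bases upstream of the starts of these 3 genes are shown to compare their makeup. RefSeq promoter windows were found for 8 of the 10 genes. The 250 bases before the start are printed on the + strand of GRCh38.p14, for EGFR at chr7:55018767-55019016, for PDGFRA at chr4:54229043-54229292 and for FGFR3 at chr4:1793043-1793292. The table holds 2 windows each for EGFR and PDGFRA, and the first along the chromosome is shown. Capitals mark the GC box, GGGCGG on either strand, a motif bound by SP1.
EGFR: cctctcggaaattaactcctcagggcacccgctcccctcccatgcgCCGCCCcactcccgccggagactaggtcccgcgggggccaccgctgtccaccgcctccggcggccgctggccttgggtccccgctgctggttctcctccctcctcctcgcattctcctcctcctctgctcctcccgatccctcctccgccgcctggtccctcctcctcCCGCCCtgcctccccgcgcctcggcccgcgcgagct
PDGFRA: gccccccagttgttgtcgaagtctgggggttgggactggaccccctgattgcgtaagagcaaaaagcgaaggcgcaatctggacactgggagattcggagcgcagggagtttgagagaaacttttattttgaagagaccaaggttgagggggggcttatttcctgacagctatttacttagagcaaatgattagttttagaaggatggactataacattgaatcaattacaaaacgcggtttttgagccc
FGFR3: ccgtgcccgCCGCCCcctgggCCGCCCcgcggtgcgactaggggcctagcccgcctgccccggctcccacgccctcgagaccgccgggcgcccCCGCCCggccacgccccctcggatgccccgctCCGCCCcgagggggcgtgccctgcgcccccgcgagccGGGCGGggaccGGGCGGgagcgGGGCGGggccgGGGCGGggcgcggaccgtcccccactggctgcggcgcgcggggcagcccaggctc
The FGFR3 window held 8 GC boxes and 40 CpG pairs, a number of CpG reached by 2.2% of the 35116 windows of the table. The EGFR window held 2 GC boxes and 25 CpG pairs (reached by 21.6%), and the PDGFRA window held no GC box and 8 CpG pairs (reached by 56.3%). A GC box was present in 42.6% of all windows. None of the 3 windows held the TATA box letters TATAAA on either strand, which 10.7% of all windows did. The windows of the 3 genes thus differed widely in makeup, and these counts say nothing of what binds there.

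The second comparison asked whether AC133 high cells differ from AC133 negative cells in receptor transcripts. No receptor probe passed in either line. PDGFRA in Caco2 had the largest difference and lay higher in the high cells in both sorts, without passing. In Caco2 limma called 0 of the 12 tested probes, against 0.773% of all probes, with 2 at an unadjusted p under 0.05. In WM115 it called 0 of 12, against 0.0217% of all probes, with 0 at an unadjusted p under 0.05. Paired by sort, limma also called 0 of the 12 in Caco2, in WM115, in the mean over both lines and in the difference between the lines, against 0.405%, 0.0289%, 0.0578% and 0.0289% of all probes. The methods' t-test gave 0 of 12 at an unadjusted p under 0.05 in each line, against 7.07% of all probes in Caco2 and 3.6% in WM115. The median difference of the 12 probes was 0.11 log2 units in Caco2, against -0.00 over all probes, and 0.09 in WM115, against 0.01.

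PDGFRA was 0.88 log2 units higher in the high cells of Caco2 sort 1 and 1.64 higher in those of sort 2. The mean difference was 1.26 (SE 0.36, 95% interval 0.43 to 2.09), and the 2 groups did not overlap. Its limma p was 0.0080 and its adjusted p over all probes 0.291, and in the fit paired by sort the p was 9.6e-04 with an adjusted p of 0.090. The size depended on the negative arrays, at 0.62 without that of sort 2 and 1.89 without that of sort 1. The summed signal of the 7 fibroblast markers was 198 to 220 units in the Caco2 high cells and 170 to 176 units in the negative cells. This sum includes markers at background, as 4 of the 7 were detected on no array of the high cells and 5 on none of the negative cells. Of those detected in Caco2, LUM differed by 0.97 log2 units, COL1A1 by 0.33 and COL3A1 by 0.12. DCN, at background, differed by -0.20. The part of these markers in the PDGFRA values was not tested. In WM115, where PDGFRA was at background, the difference was 0.03 log2 units, and the difference between the lines of 1.23 (95% interval 0.05 to 2.41) had an adjusted p of 0.818.

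EGFR probe 1 was 0.51 and 0.31 log2 units higher in the high cells of Caco2 sorts 1 and 2, with a mean of 0.41 (95% interval 0.04 to 0.77, adjusted p 0.564). It was the 1 tested receptor probe with the same direction in all 4 sorts, a pattern met by 15% of all tested probes, but its WM115 differences of 0.06 and 0.12 lay between signals at background. EGFR probe 3 differed by 0.29 in Caco2 (adjusted p 0.777), and probe 2 by -0.08, with its sorts at -0.21 and 0.04. In WM115, EGFR probe 2 was 0.21 and 0.39 log2 units higher in the high cells, where it was detected on both arrays and on neither negative array, a difference of at least 1.12-fold (adjusted p 1). MET was 0.37 and 0.86 log2 units higher in the Caco2 high cells, a mean of 0.62 (95% interval -0.23 to 1.46, adjusted p 0.842). In WM115, MET was 1.13 higher in the high cells of sort 1 and 0.62 lower in those of sort 2, so the sorts went opposite ways.

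The Caco2 difference of ERBB3 probe 1 was 0.10 log2 units, and the WM115 one was 0.39 (95% interval -0.28 to 1.05, adjusted p 1). The WM115 value rested on the array that stood apart, being -0.11 without it and 0.88 without the other negative array. For ERBB3 probes 2 and 3 the differences were 0.09 and 0.12 in Caco2, against 0.18 and 0.11 for WM115. FGFR3 differed by 0.12 in Caco2, with a 95% interval of -0.22 to 0.45, and IGF1R by 0.11 in Caco2 and 0.02 in WM115. For ERBB2 probes 1 and 2 they were -0.04 and -0.22 in Caco2, against -0.12 and 0.08 for WM115. Groups did not overlap on 6 of the 12 probes in Caco2 and 3 in WM115, against 38% and 27.9% of all tested probes. In the mean over both lines limma called 0 of 12, against 0.0939% of all probes, with 1 at an unadjusted p under 0.05. In the difference between the lines it also called 0 of 12, against 0.065% of all probes, with 1 at an unadjusted p under 0.05.

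**Figure D4:**
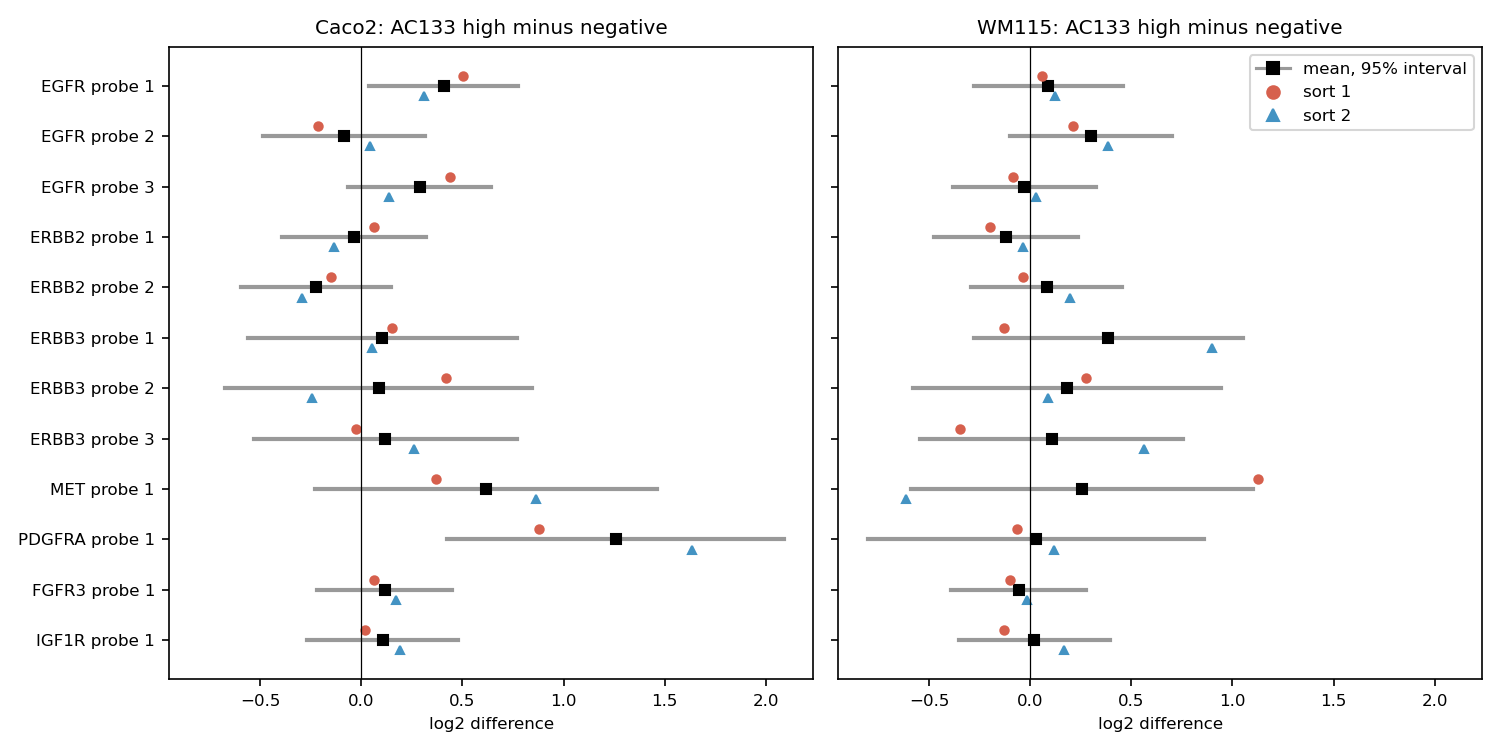
Log2 difference, AC133 high minus negative (horizontal axis), of each tested receptor probe in Caco2 (left) and WM115 (right); squares are means with 95% intervals, circles sort 1 and triangles sort 2. PDGFRA and EGFR probe 1 in Caco2 have intervals above 0 but adjusted p of 0.291 and 0.564, and MET in WM115 has its sorts on opposite sides of 0.

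The genes around the receptors were followed in 5 lists, with 1 probe a gene. They were ligands, other receptor tyrosine kinases, inhibitors and co-receptors, adaptors and effectors, and ERK response genes. The same detection rule held, so some list genes, such as EPHA1 and EPHB3, were tested through the groups of 1 line alone. Counts and medians between the lines thus describe the tested genes and not the whole lists. Between AC133 high and negative cells 1 of their 115 tested genes passed in Caco2 and 0 in WM115, against 0.847% and 0.0178% of all genes. The gene was EPHA4, an ephrin receptor, at 1.31 log2 units in Caco2 (adjusted p 0.047) and 1.34 in WM115 (adjusted p 0.214). Of all genes 0.107% passed in the mean over both lines, and EPHA4 was the 1 gene of these lists to do so. In the difference between the lines 0 of the 115 passed, against 0.0713% of all genes.

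Ligands were measured on 38 of 41 genes, of which 15 were tested. IGF2, a ligand of IGF1R, was the ligand with the largest difference between the lines, at least 67.5-fold higher in Caco2. KITLG, the KIT ligand, was 13.5-fold higher in Caco2 on its lead probe and differed by 1.39 log2 units on a second, while KIT itself was near background there. PDGFC, a ligand of PDGFRA, was 2.06-fold higher in Caco2, a fold set against a line where it was above background on 1 of 4 arrays. FGF19, above background on 3 of 4 WM115 arrays, was 1.81-fold higher in Caco2 and FGF9, detected on the 2 negative arrays of Caco2, at least 1.44-fold. In WM115 FGF13, which stays inside cells and does not act as a secreted ligand, was at least 2.86-fold higher, EGF at least 2.70-fold and PDGFD, a ligand of PDGFRB, at least 1.90-fold. These 8 are among 9 ligand genes that passed, 6 higher and 3 lower in Caco2. Of all genes 60.3% passed, 30.4% higher and 29.9% lower in Caco2. Of the AC133 comparisons, FGF9 differed by -1.64 log2 units in Caco2 and was not above background in its high cells (adjusted p 0.096), and PDGFC by 0.65 (adjusted p 0.245). In WM115 FGF13 differed by 0.78 (adjusted p 0.274) and EGF by 0.40 (adjusted p 1).

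Of 48 other receptor tyrosine kinase genes 42 were on the array and 21 were tested, and 10 were higher and 1 lower in Caco2, against 30.4% and 29.9% of all genes. The largest differences were in EPHA1, an ephrin receptor, at least 17.9-fold, ROR1, a receptor for WNT5A, 12.1-fold, FGFR4, a further fibroblast growth factor receptor, 9.02-fold, EPHA2 6.46-fold and PTK7, whose kinase domain is inactive, 4.84-fold. ROR1 was above background on 2 of 4 WM115 arrays. EPHB3 was at least 1.13-fold higher in WM115. The median difference of the 21 tested genes was 0.38 log2 units, against 0.02 over all tested genes. In WM115, EPHB4 differed by -0.60 log2 units between AC133 high and negative cells (adjusted p 0.531).

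Inhibitors and co-receptors had 30 tested genes, 14 higher and 7 lower in Caco2, against 30.4% and 29.9% of all genes. UBASH3B, a phosphatase, was at least 9.62-fold higher in Caco2, IGFBP4, which binds insulin-like growth factors, at least 8.48-fold, LRIG1, an inhibitor of the EGF receptor family, at least 8.02-fold, CBLC, a ubiquitin ligase, 9.11-fold and the phosphatase PTPN6 6.47-fold. CBLC and PTPN6 were each above background on 1 of 4 WM115 arrays, so that their folds are set against a line mostly at background. Other PTPN6 probes differed by 0.81 log2 units (adjusted p 0.0023) and 0.23 (0.116). The insulin-like growth factor binding proteins IGFBP7, IGFBP3 and IGFBP2 were 26.9-fold, at least 10.9-fold and at least 7.39-fold higher in WM115, and the adaptor GRB10 3.12-fold, although a second GRB10 probe differed by -0.12 (adjusted p 0.489). The ubiquitin ligase CBLB was 2.19-fold higher in WM115. With the AC133 sort, CBLB differed by 0.52 and LRIG1 by -0.49 in Caco2 (adjusted p 0.452 and 0.526), and IGFBP5 by -2.16 and FGFRL1, a receptor without a kinase domain, by -0.72 in WM115 (0.449 and 0.937). IGFBP5 was not above background in the WM115 high cells. Its WM115 difference was -1.26 in sort 1 and -3.06 in sort 2, whose negative array is the one that stood apart.

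Adaptors and effectors had 32 tested genes, 7 higher and 12 lower in Caco2, against 30.4% and 29.9% of all genes, so that the share called was near the 60.3% of all genes. VAV3, an exchange factor for small GTPases, was at least 22.9-fold higher in WM115, IRS2, an adaptor of IGF1R, 15.6-fold, the transcription factor STAT5A 9.68-fold, the PI3 kinase subunit PIK3CD 6.59-fold and the phospholipase PLCG2 5.52-fold. IRS2 and PIK3CD were each above background on 3 of 4 Caco2 arrays. In Caco2 VAV2 was 2.90-fold higher, the adaptor GAB1 2.54-fold, the kinase SRC 2.23-fold, the RAS activator SOS1 1.62-fold and the kinase ARAF 1.46-fold. A second SRC probe differed by 0.56 (adjusted p 0.0096). With the AC133 sort, IRS2 and PLCG2 differed by 0.71 and 0.72 in Caco2 (adjusted p 0.192 and 0.471), and in WM115 PIK3R3 by 0.49 and SHC1 by -0.63 (0.803 and 0.849). The other SHC1 probes differed by -0.39 and 0.29.

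ERK response and feedback genes had 17 tested members, of which 2 were higher and 10 lower in Caco2, against 30.4% and 29.9% of all genes, with a median difference of -0.69 log2 units against 0.02 over all genes. DUSP4, a phosphatase that acts on ERK, was 38.3-fold higher in WM115, and its second probe differed by -4.49. IER3, the ERK pathway inhibitors SPRED1 and SPRY2 and the transcription factor ETV5 were 3.83-fold, 3.44-fold, 2.88-fold and 3.27-fold higher in WM115. The early response genes FOS and EGR1 were 3.09-fold and 1.94-fold higher in Caco2. With the AC133 sort none passed; ETV5 differed by -0.85 and SPRED1 by 0.54 in Caco2 (adjusted p 0.474 and 0.528), and FOSL1 by -0.73 and IER3 by -0.30 in WM115 (0.908 and 1).

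**Figure D5:**
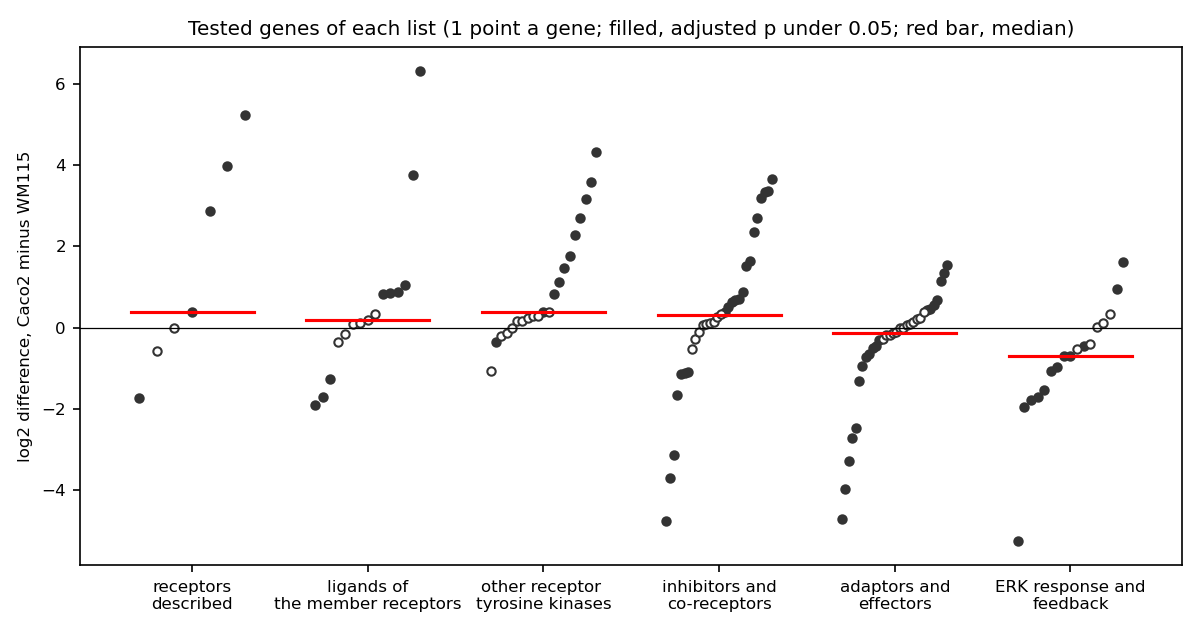
Log2 difference, Caco2 minus WM115 (vertical axis), of the tested genes of the 10 receptors described and of 5 related lists; each point is 1 gene, filled where the adjusted p is under 0.05, and the red bar is the median. The other receptor tyrosine kinases have a median of 0.38 and the ERK response genes one of -0.69.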

How the data were processed

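Per the file headers, the authors deposited for each array intensity values, averaged over the beads of a probe by BeadStudio 3 per the series text, together with bead numbers and standard errors. A detection p-value stands beside each deposited intensity. The deposited joint table holds intensity after quantile normalization by the authors. Genome build and any background subtraction are not given in the sources used here. Intensity was corrected by normexp (limma 3.58.1, R 4.3.3) with the negative control level inferred from detection p-values and an offset of 16, quantile normalized and taken to log2. Symbols come from the platform annotation, updated by gene number against the RefSeq gene table, which also supplied the promoter windows. A limma model of 4 group means was fitted to all 8 arrays (4 residual and 4.35 prior degrees of freedom), two-sided, with Benjamini-Hochberg adjustment over 13844 probes and a threshold of 0.05; adjusted p-values are from this fit unless another is named. The shared spread carries the tests, since with 2 arrays a group the smallest p of an exact permutation test is 0.333. The p-values measure the spread between sorts of each line. The labels give both fractions of a line the same sort number, which pairs them; same-numbered arrays deviated together with a correlation of 0.28 in Caco2 and 0.18 in WM115, and the paired fit was an alternative. A fit with the sort as a random block (correlation 0.19) was added for the lines after seeing the data. The fit was tested on simulated data, with changes larger than the mean AC133 difference of any receptor probe and independent noise between arrays. That test thus does not measure the power to call the receptor differences seen here. A list gene's probe is its brightest tested one. Genes named are all receptor probes and, per list, those that passed in an AC133 comparison or the 2 with the smallest p within a line, and up to 5 a direction between lines. The members and lists were chosen with earlier results of these data known. The number of arrays limits the precision, and the median standard error of the 12 receptor probes was 0.17 log2 units within a line.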

Additional observations from a re-analysis of the deposited data

How the results depend on the processing

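Each receptor probe was refitted without background correction, with an offset of 50, with median scaling, on the authors' normalized table, without a filter, over probes detected on all 8 arrays, with the 4 arrays of a line alone, with a trended robust prior, with the methods' t-test, paired by sort as a replicate block, and without each array. The replicate block, fitted to the AC133 comparisons, gave 0 of 12 receptor probes called in each AC133 comparison and changed no call; PDGFRA in Caco2 was 1.26 there, with an adjusted p of 0.090. With the sort as a random block, added after seeing the data, 8 receptor probes were called between lines, ERBB2 probe 1 with an adjusted p of 0.023. No alternative called a receptor probe within a line. Between lines the 8 called probes kept their direction in all 15 or 16 alternatives each. Of these only ERBB2 probe 1 lost its call, as given above. MET, not one of the 8, passed only in the alternative given above. Over probes detected on all 8 arrays 3 were called in place of 8, since the filter leaves out EGFR, ERBB2, PDGFRA and FGFR3. Without 1 array at a time, some small differences changed sign, none of them called. In Caco2, ERBB2 probe 1 ran from -0.15 to 0.074, ERBB3 probes 1, 2 and 3 from -0.030 to 0.24, from -0.14 to 0.31 and from -0.046 to 0.28, and IGF1R from -0.00013 to 0.21. In WM115, EGFR probe 3 ran from -0.059 to 0.0013, ERBB2 probe 2 from -0.030 to 0.19, ERBB3 probes 1, 2 and 3 from -0.11 to 0.88, from -0.26 to 0.62 and from -0.37 to 0.58, MET from -0.30 to 0.81, PDGFRA from -0.021 to 0.077, FGFR3 from -0.13 to 0.014, and IGF1R from -0.12 to 0.16. Between lines EGFR probe 2 ran from -0.052 to 0.12 and IGF1R from -0.073 to 0.067. Background limits every difference of EGFR, PDGFRA and FGFR3 that involves WM115: with an offset of 50 their log2 differences between lines were 1.78, 2.76 and 3.97. These lie under the bounds of 2.55, 3.65 and 5.01 log2 units found with the offset of 16, so the bounds depend on that setting. PDGFRA in Caco2 ran from 0.62 to 1.89, with adjusted p of 0.071 to 0.962.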

Other observations

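Over the 8 arrays, which share 2 lines and so mostly order by line, the genes whose signal followed each receptor most closely were CDX2, an intestinal transcription factor, and OCLN, a tight junction gene, for EGFR (Pearson r of 0.999 each). For ERBB3 they were EDNRB, the endothelin receptor B gene, and CHURC1 (0.997 and 0.995), for PDGFRA they were SEL1L3 and RESF1 (0.998 and 0.996), and for FGFR3 UBE2E2 and MAL2 (0.9998 each). For ERBB2 they were ARMC8 and CNNM4 (0.990 and 0.987), for MET TIMM8A and SMUG1 (0.965 and 0.955), and for IGF1R EXOC5 and CYB5D1 (0.949 and 0.929). MET and IGF1R overlapped between the lines, so their arrays do not order by line. Each pair is the closest 2 out of 11214 tested genes over 8 arrays. A high r can thus come from the search alone, and none was tested.

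Each probe's signal is a mean over beads. The standard error over beads was 2.56% to 5.30% of the signal for PDGFRA, from 33 to 59 beads, and 3.68% to 5.44% for MET, from 32 to 44 beads. The PDGFRA signal of the 4 Caco2 arrays ran from 138 to 759 intensity units before normalization, and the MET signal of the 4 WM115 arrays from 256 to 544 units.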
